A study of Mus musculus with 9 samples.

Results

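The genes described here are 35 nuclear genes that encode subunits of mitochondrial complex I, chosen by name from the 54532 gene identifiers of the deposited count table. Every one of the 35 was found as a single protein-coding row. Processed pseudogenes with the same family name were left out (4 rows). The list holds 6 core subunits of the peripheral arm, 9 accessory subunits of the peripheral arm, 9 accessory subunits of the proximal membrane arm and 11 of the distal membrane arm.

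Complex I, the NADH:ubiquinone oxidoreductase, is the entry point of electrons from NADH into the respiratory chain. Its peripheral arm holds the flavin and the iron-sulfur clusters that pass electrons to ubiquinone, and its membrane arm pumps protons. The core of the membrane arm is encoded by mitochondrial DNA and the core of the peripheral arm by nuclear DNA, so the complex depends on both genomes. Salivary gland cells, the ducts above all, are rich in mitochondria and spend ATP on ion transport and secretion.

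The tissue was the submandibular gland of wild-type mice that all received 10 Gy of radiation. Libraries came from total RNA of 4 sections of 50 µm per gland, treated with DNase I and prepared with a SMARTER mRNA-seq kit. There were 3 libraries at 30 days after irradiation, 3 at 60 days and 3 at 90 days. Non-irradiated glands were not analysed here, so only irradiated time points are compared, and the effect of waiting cannot be told apart from that of age. The labels give no age, sex, harvest hour or library batch, and do not say whether the libraries of a group come from separate animals. The p-values therefore measure the spread between these samples, which may be technical.

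Libraries held 16541396 to 26065856 counts. The secretory gene Mucl2 took 31.4% to 42.8% of them, so that the level of any other gene depends on the scaling. Values below are CPM (a gene's counts scaled to the size of its library) with TMM factors, a scaling that sets most genes level between libraries, and the medians and the differences of single nuclear complex I genes are also given with scaling by library total alone. Summed acinar markers ran from 458284 to 648505 CPM at 30 days and from 366623 to 534485 at 60 days. At 90 days they ran from 311581 to 459227. Mucl2 alone held 264698 to 519020 CPM of this sum. Of 11 acinar markers tested with TMM, 7 were above 0 at 60 against 30 days (49.6% of all genes). Their median was 0.29, and 1 was called higher (1.14%) and 0 lower (0.427%). At 90 against 30 days 4 of 11 were above 0 (52.1%), with a median of -0.42. Of these 11, 1 was called higher (1.81%) and 2 lower (1.77%). Summed granular duct markers ran from 22223 to 31084 CPM at 30 days and from 47230 to 57361 at 60 days. At 90 days they ran from 40270 to 58394. With TMM 8 of 10 were called higher at 60 than at 30 days (1.14% of all genes). At 90 against 30 days 8 of 10 were called higher (1.81%). With library totals it was 5 of 10 and 8 of 10, against 0.591% and 2.89% of all genes called in either direction. Summed lymphocyte or macrophage markers ran from 60.4 to 100 CPM at 30 days and from 64.7 to 91.6 at 60 days. At 90 days they ran from 88.3 to 173. Of 12 listed, 7 were tested, and at 90 against 60 days 7 of 7 were above 0 (50.1% of all genes). Their median was 0.67, and 0 were called (0.256%). Basal or myoepithelial markers ran from 304 to 423, from 450 to 480 and from 419 to 592 CPM in the same order. At 90 against 30 days 6 of 6 were above 0 (52.1% of all genes), with a median of 0.44. With TMM 1 was called, against 1.81% of all genes called higher. With library totals 3 were called, against 2.89% of all genes called in either direction. Skeletal muscle markers summed to at most 3.12 CPM in any library, with Myh4 at 0. The part of cell composition in the results below was not tested, and in bulk tissue fewer cells of a type cannot be told apart from less RNA per cell.

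All 35 genes were expressed in every library and passed the filter on low counts, with a lowest count of 92 for Ndufb2. Mean levels ran from 7.15 CPM (Ndufb2) to 65.2 CPM (Ndufv1), with a median of 31.7 CPM. Ndufv1 carries the flavin and the NADH site. Together the genes took 0.0964% to 0.138% of each library's counts. Divided by the length of the principal mRNA, the highest levels were those of Ndufa6 (86.5 CPM per kilobase), an accessory subunit at the ubiquinone end of the peripheral arm, Ndufa11 (80.5), a membrane-arm subunit, and the core iron-sulfur subunit Ndufs7 (74.8). The lowest were those of Ndufab1 (9.10), the mitochondrial acyl carrier protein, Ndufa12 (10.6) and Ndufb2 (15.7), a 9.50-fold range between the ends. This order depends on the transcript chosen. With the longest principal transcript (4371 bases in place of 455), Ndufb2 came to 1.64 CPM per kilobase.

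No gene of the 35 changed between time points at an adjusted p under 0.05 (edgeR's quasi-likelihood test, Benjamini-Hochberg over 15224 genes). Between 30 and 60 days the count was 0 of 35, against 1.56% of all genes tested, with a lowest adjusted p of 0.352. Between 60 and 90 days it was 0 of 35 against 0.256%, with a lowest adjusted p of 0.490. Between 30 and 90 days it was 0 of 35 against 3.57%, with a lowest adjusted p of 0.251. For 60 days against the mean of the other time points it was 0 of 35 against 0.256%, with a lowest adjusted p of 0.566. At these background shares, a count of 0 among 35 is near the background and is not a result about these genes. At an unadjusted p under 0.05 there was 1 gene between 30 and 60 days (12.4% of all genes), 0 between 60 and 90 days (10.8%), 1 between 30 and 90 days (16.8%) and 0 for 60 days against the others (9.45%). DESeq2 and limma-voom also called 0 in each comparison, and these counts too are not a result about these genes. With scaling by library total edgeR called 0 of 35 in each, against 0.591%, 0.184%, 2.89% and 0.131% of all genes in the same order.

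The intervals describe how precisely the difference of each gene, taken alone, was fitted with TMM. They rest on the spread between these samples, which may be technical. The 95% interval of the difference lay within 1.5-fold in either direction for 28 of the 35 genes between 30 and 60 days, for 29 between 60 and 90 days and for 30 between 30 and 90 days. It lay within 2-fold for 34, 35 and 34 genes. The largest fitted difference was 1.45-fold between 30 and 60 days, 1.23-fold between 60 and 90 days and 1.30-fold between 30 and 90 days. The median standard error was 0.14 on the log2 scale in each of these comparisons.

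**Figure D1:**
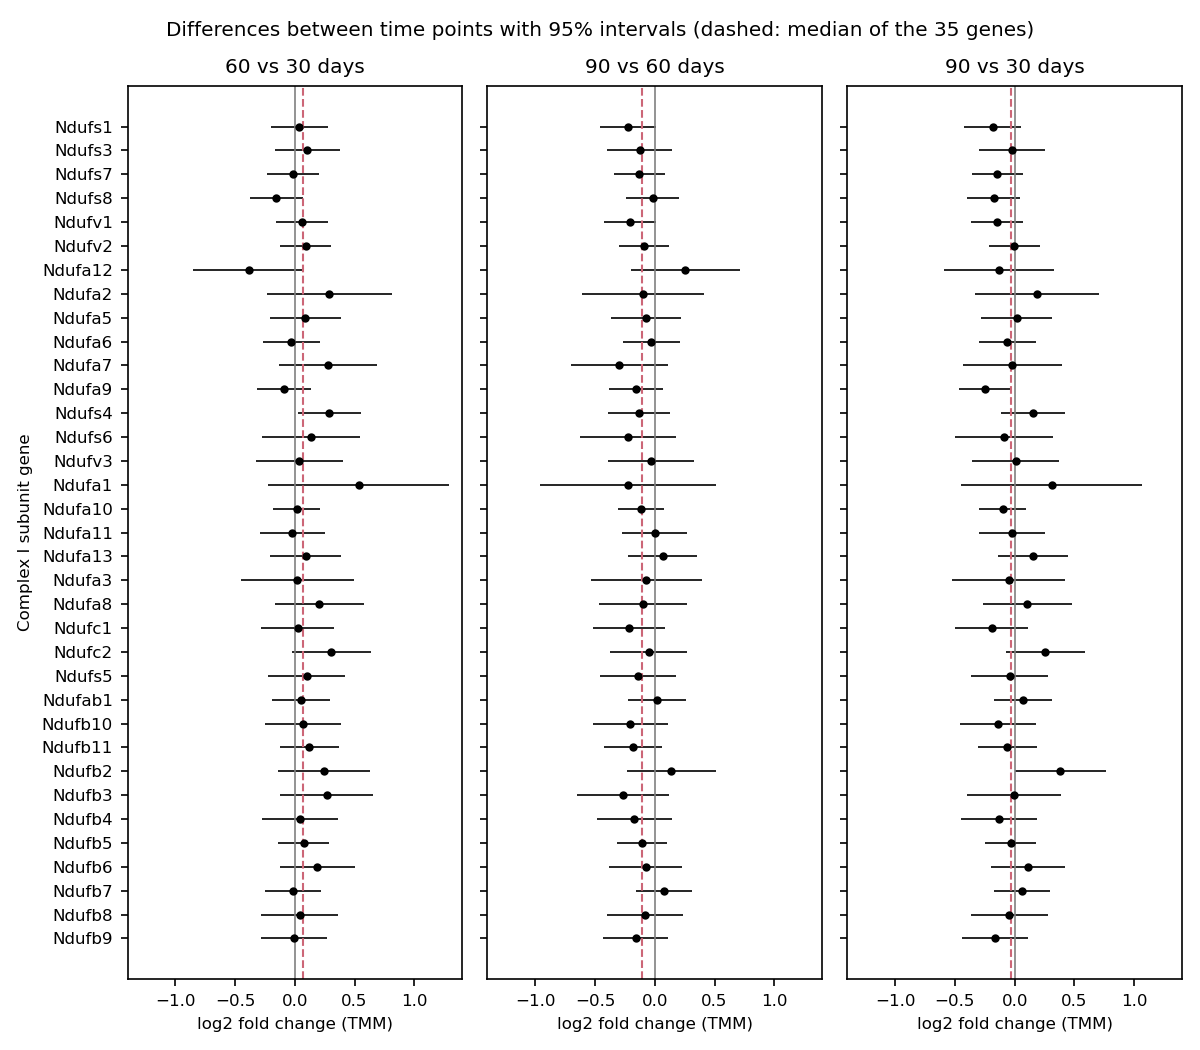
Log2 fold change of each complex I subunit gene (rows, grouped by role) in 3 comparisons of time points, TMM scaling; points are fitted values, bars 95% intervals, and the dashed line is the median of the 35 genes (0.07, -0.11 and -0.03 from left to right). All bars cross 0 except those of Ndufs4 between 30 and 60 days and Ndufa9 between 30 and 90 days, and Ndufa1 has the widest, from -0.22 to 1.29 between 30 and 60 days.

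As a group the genes sat slightly above 30 days at 60 days and slightly below 60 days at 90 days. The median log2 difference between 30 and 60 days was 0.07, with 27 of 35 genes above 0, where 49.6% of all genes were above 0 and the median of all genes was -0.0025. From 60 to 90 days the median was -0.11, with 5 of 35 genes above 0 (50.1% of all genes, median 0.00077). Between 30 and 90 days it was -0.03, with 12 of 35 above 0 (52.1% of all genes, median 0.01). The genes share libraries and are not independent, the comparisons share the libraries of a time point, and no test was made of these medians.

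Scaling by library total moved all genes, and turned the sign of the complex I medians at 90 days. The median of all genes moved to 0.05, 0.17 and 0.24 for 60 against 30, 90 against 60 and 90 against 30 days. The complex I medians became 0.11, 0.07 and 0.19, with 32, 26 and 34 of 35 genes above 0. Measured from the median of all genes, the shift was nearly the same in both scalings. It was 0.07 and 0.07 for 60 against 30 days, -0.11 and -0.10 for 90 against 60 days, and -0.05 and -0.05 for 90 against 30 days (TMM and library total). That was fixed in advance, since the scalings differ by a factor per library that moves all genes nearly alike. In the same order, 5, 21 and 22 of the 35 genes turned from below to above 0, and 0 turned the other way. Turns of sign over all genes were not counted. Relative to the median of all genes, 27 of 35 genes were above it at 60 against 30 days in both scalings and 5 of 35 at 90 against 60 days in both. The near agreement of these counts between scalings was likewise fixed in advance.

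**Figure D2:**
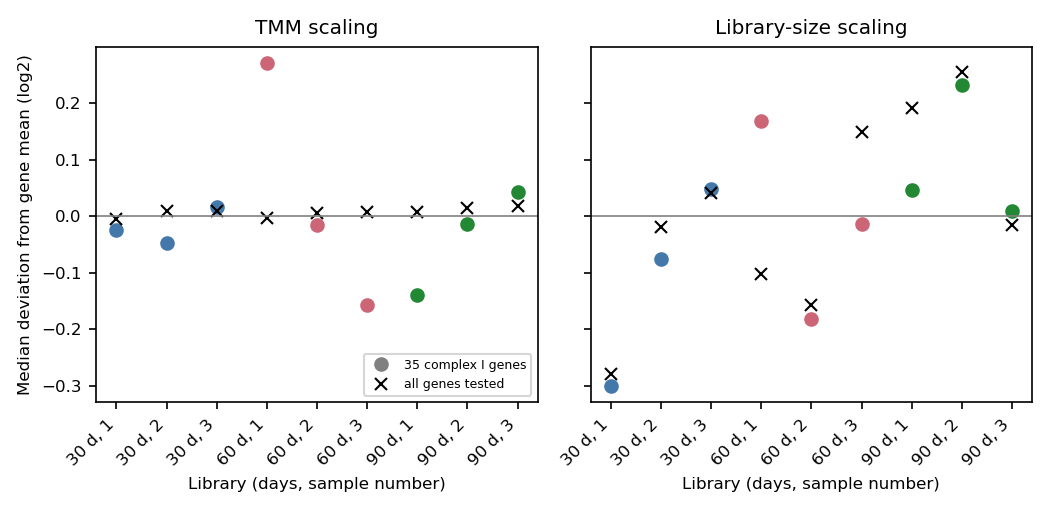
Median deviation from each gene's own mean (log2) in each library, for the 35 complex I genes (coloured points) and all genes tested (crosses), with TMM scaling on the left and library-total scaling on the right. Under TMM the first 60-day library stands highest at 0.27 and the third 60-day library lowest at -0.16, while under library totals the crosses run from -0.28 to 0.26.

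The sign of the shift at 60 days rested on a single library. The median deviation of the 35 genes was -0.02, -0.05 and 0.02 in the 30-day libraries (samples 1, 2 and 3), 0.27, -0.02 and -0.16 in the 60-day libraries and -0.14, -0.01 and 0.04 in the 90-day libraries. In the first 60-day library 32 of 35 genes were above their own mean, and in the third 5 of 35. The distance between these 60-day libraries was thus wider than the median difference between any time points. Without the first 60-day library the median difference between 30 and 60 days was -0.05 and that between 60 and 90 days 0.02, both of opposite sign. Without the third 60-day library they were 0.17 and -0.21. The difference between 30 and 90 days was -0.03, and without the third 90-day library -0.09, without the first 0.03.

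**Figure D3:**
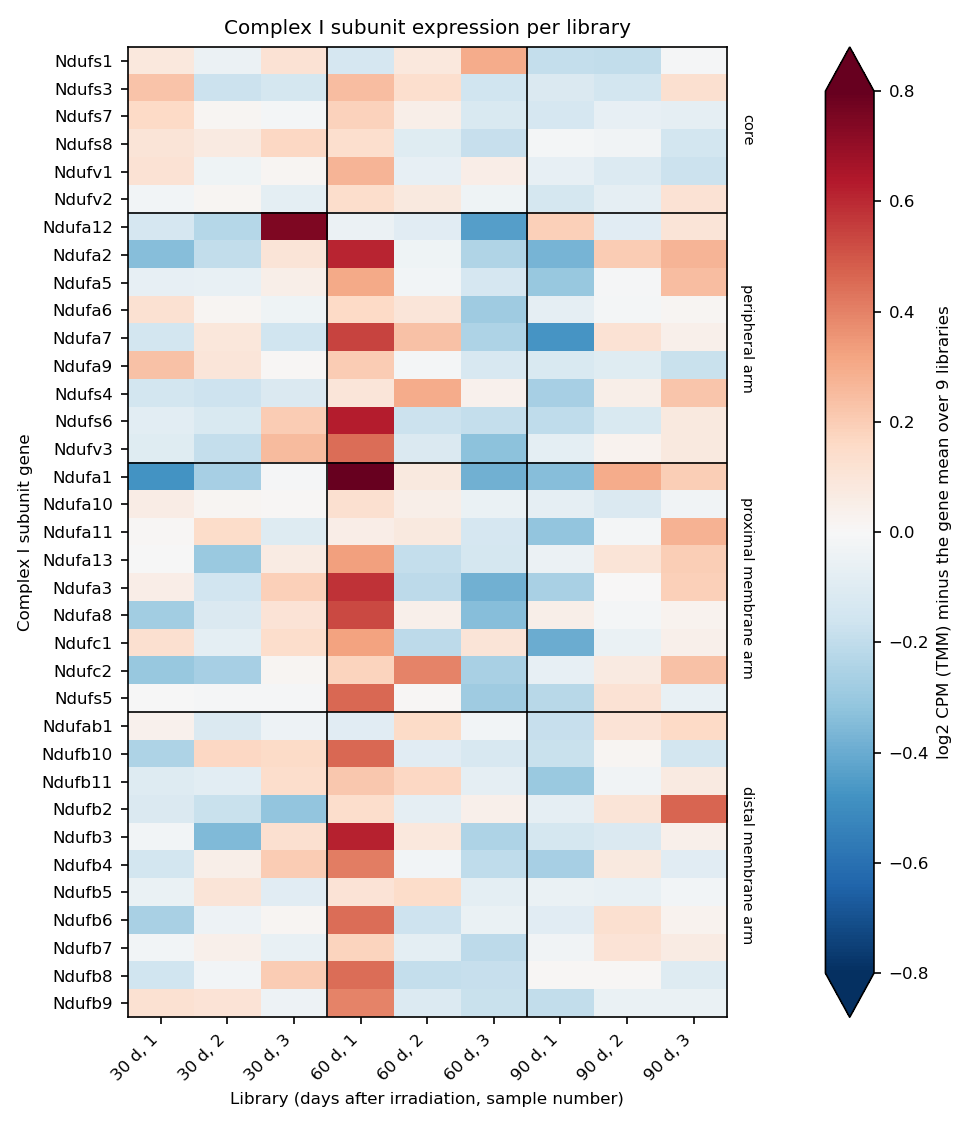
Heat map of log2 CPM (TMM) minus the gene's mean over the 9 libraries, for the 35 complex I genes in rows grouped by role and the libraries in columns by days and sample number. The column of the first 60-day library is mostly red, with 32 of 35 genes above their mean, and those of the third 60-day and the first 90-day libraries are mostly blue, with 5 and 3 above.

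The pattern of the 60-day libraries was larger for short transcripts. The principal mRNA of the 35 genes is 315 to 3479 bases long, with a median of 763. In the first 60-day library the 23 complex I genes with an mRNA under 1000 bases had a median deviation of 0.40, and in the third 60-day library -0.19. All 781 tested coding genes of that length had 0.26 and -0.16 in the same libraries, and the 4252 coding genes of 4000 bases or more had -0.08 and 0.10. The spread within groups was a median SD of 0.23 (log2) for the 23 short genes and 0.14 for the other 12. Over the 35 genes that SD had a Spearman correlation of -0.53 with mRNA length and -0.71 with mean CPM, as a description only, since the genes share the same 9 libraries. Between 30 and 60 days the 781 short coding genes had a median of 0.09 and the 23 short complex I genes 0.09. Between 60 and 90 days the medians were -0.02 and -0.10, and between 30 and 90 days 0.08 and -0.04.

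**Figure D4:**
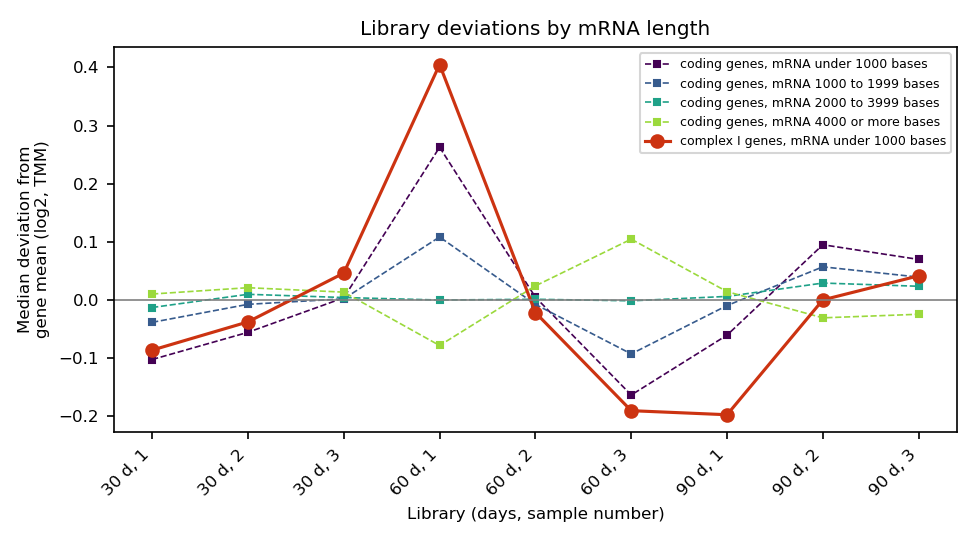
Median deviation from the gene mean (log2, TMM) per library for tested coding genes in 4 classes of mRNA length (dashed lines) and for the complex I genes with an mRNA under 1000 bases (solid line). In the first 60-day library coding genes under 1000 bases are at 0.26, the short complex I genes at 0.40, and coding genes of 4000 bases or more at -0.08.

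The 6 core subunits carry the flavin and the iron-sulfur clusters. Their median difference was 0.05 between 30 and 60 days (4 of 6 above 0), -0.13 between 60 and 90 days (0 of 6) and -0.15 between 30 and 90 days (0 of 6). With library totals they became 0.11 (5 of 6 above 0), 0.05 (4 of 6) and 0.08 (6 of 6). Ndufs8, an iron-sulfur subunit next to the ubiquinone site (chromosome 19, 3908863 to 3912774, minus strand, GRCm38), had 39.8, 39.1 and 41.7 CPM at 30 days, 40.8, 34.7 and 32.8 at 60 days and 36.7, 36.4 and 33.6 at 90 days. All 90-day values were below all 30-day values, while the 60-day values overlapped the 30-day range. Its difference between 30 and 60 days was -0.16 ± 0.11 (log2, SE; adjusted p = 0.601, edgeR), and -0.11 with library totals. Between 30 and 90 days it was -0.18, and 0.05 with library totals. Ndufv1 had 70.3, 63.4 and 65.8 CPM at 30 days and 62.2, 60.1 and 57.6 at 90 days, which do not overlap, and a log2 difference of -0.15 ± 0.10 (SE; adjusted p = 0.522, edgeR). With library totals Ndufv1 had 58.0, 62.1 and 67.3 CPM against 70.9, 71.3 and 56.2, which overlap, and a difference of 0.08. Ndufs1, which holds several of the iron-sulfur clusters, had 65.3, 59.5 and 66.6 CPM at 30 days, 55.9, 65.1 and 75.5 at 60 days and 54.0, 53.6 and 61.1 at 90 days. Unlike most of the list it was lowest of its group in the first 60-day library and highest in the third.

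Which genes had groups without overlap depended on the scaling. With TMM, 6 genes were lower at 90 than at 30 days without overlap, namely Ndufa9, Ndufa10, Ndufb9, Ndufs7, Ndufs8 and Ndufv1, against 11.8% of all genes. A single gene, Ndufb2, was higher without overlap (11.4% of all genes). With library totals 0 were lower (2.52% of all genes) and 8 were higher (22.5%), namely Ndufa13, Ndufab1, Ndufb2, Ndufb7, Ndufc2, Ndufs3, Ndufs4 and Ndufv2. At 60 against 30 days Ndufb2 and Ndufs4 were higher without overlap with TMM (8.65% of all genes) and 0 were lower (8.22%), and Ndufs3 and Ndufs4 were higher with library totals (7.95%) and 0 lower (3.83%). At 90 against 60 days 0 were higher (8.3%) and 0 lower (7.64%) with TMM, and 1, Ndufa12, was higher (13%) and 0 lower (1.2%) with library totals. Ndufb2 at 90 days and Ndufs4 at 60 days were thus above 30 days without overlap in both scalings. The share of all genes without overlap in both scalings was not counted, so this is not a result about these genes.

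In the peripheral arm, Ndufa9 had the largest fitted decrease between 30 and 90 days. Ndufa9 is an accessory subunit where the peripheral arm meets the membrane (chromosome 6, 126821721 to 126849136, minus strand). It had 50.9, 46.2 and 43.6 CPM at 30 days, 49.8, 42.8 and 39.7 at 60 days and 39.8, 40.5 and 38.4 at 90 days. The 90-day values lay below all 30-day values. The log2 difference was -0.25 ± 0.11 (SE, 95% interval -0.47 to -0.02), with an unadjusted p of 0.0341 and an adjusted p of 0.251 (edgeR). With library totals it was -0.01 (adjusted p = 0.976, edgeR).

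Ndufs4, an accessory subunit of the peripheral arm needed for a stable NADH-binding module, was singled out after its values were seen, as the gene with the smallest p between 30 and 60 days. It lies on chromosome 13 (114287795 to 114388258, minus strand). It had 24.6, 24.2 and 25.1 CPM at 30 days, 29.0, 33.3 and 27.9 at 60 days and 22.6, 28.1 and 31.7 at 90 days. The 60-day values were all above the 30-day values, and the 90-day values ran from below the 30-day range into the 60-day range. The log2 difference between 30 and 60 days was 0.29 ± 0.13 (SE, 95% interval 0.02 to 0.55), with an unadjusted p of 0.0346 and an adjusted p of 0.352 (edgeR). With library totals it was 0.33 (adjusted p = 0.717, edgeR).

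Ndufa7, also of the peripheral arm (chromosome 17, 33824572 to 33838317, plus strand), had 24.4, 28.8 and 24.2 CPM at 30 days, 39.3, 31.8 and 22.8 at 60 days and 19.5, 29.2 and 27.8 at 90 days. The first 60-day value was the highest of the 9, and the third lay below all 30-day values. Between 60 and 90 days the log2 difference was -0.30 ± 0.19 (SE; adjusted p = 0.611, edgeR), without the first 60-day library -0.10, and with library totals -0.10.

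Ndufa12 had the largest fitted decrease between 30 and 60 days, and it rested on a single sample. The gene, an accessory subunit added late in assembly, lies on chromosome 10 (94198720 to 94221443, plus strand). It had 10.5, 9.81 and 19.3 CPM at 30 days, 11.1, 10.8 and 8.47 at 60 days and 13.1, 10.8 and 12.3 at 90 days. The third 30-day sample stood apart from the other 8 values. The log2 difference was -0.39 ± 0.22 (SE; adjusted p = 0.514, edgeR), without that sample 0.00026, and with library totals -0.37. The fitted difference between 60 and 90 days was 0.25 ± 0.21 (SE; adjusted p = 0.729, edgeR), and 0.44 with library totals. Of the 50-base windows of the Ndufa12 mRNA, 26.2% also occur in the processed pseudogene Gm15920, which had 7.66, 7.79 and 4.26 CPM at 30 days. In the third 30-day sample Gm15920 was thus at its lowest where Ndufa12 was at its highest. Their sums were 18.1, 17.6 and 23.6 CPM at 30 days and 21.9, 17.9 and 15.7 at 60 days, which overlap.

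In the proximal membrane arm, Ndufa1 had the largest fitted increase of the list between 30 and 60 days and the widest spread. It encodes a small X-linked subunit (chromosome X, 37187588 to 37191163, minus strand) with a principal mRNA of 419 bases. It had 14.5, 16.9 and 20.2 CPM at 30 days, 37.9, 21.4 and 15.6 at 60 days and 16.0, 25.0 and 23.2 at 90 days. A single value, that of the first 60-day library, lay far above the rest. The log2 difference between 30 and 60 days was 0.53 ± 0.33 (SE, 95% interval -0.22 to 1.29; adjusted p = 0.586, edgeR), without that library 0.10, and with library totals 0.54. Between 30 and 90 days it was 0.31 ± 0.33 (SE; adjusted p = 0.726, edgeR), without the second 90-day library 0.18, and with library totals 0.52.

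Ndufc2 (chromosome 7, 97400003 to 97407802, plus strand) had 13.9, 14.3 and 17.3 CPM at 30 days, 19.4, 22.6 and 14.3 at 60 days and 16.4, 18.0 and 20.1 at 90 days. The third 60-day value fell within the 30-day range. From 30 to 60 days the log2 difference was 0.31 ± 0.16 (SE; adjusted p = 0.456, edgeR), without the second 60-day library 0.15, and with library totals 0.33. Ndufc1, its neighbour in the complex (chromosome 3, 51404677 to 51408988, minus strand), had 24.8, 21.5 and 25.1 CPM at 30 days, 28.4, 19.7 and 24.4 at 60 days and 17.3, 21.9 and 23.4 at 90 days. All groups overlapped. From 30 to 90 days the log2 difference was -0.19 ± 0.14 (SE; adjusted p = 0.554, edgeR), and with library totals it was 0.03. The tightest of all 35 genes was Ndufa10, also of the proximal arm, with 59.8, 58.1 and 57.8 CPM at 30 days, 62.8, 59.4 and 55.4 at 60 days and 54.7, 53.0 and 56.3 at 90 days, a within-group SD of 0.06 on the log2 scale.

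In the distal membrane arm, Ndufb2 was the gene with the largest fitted increase between 30 and 90 days. It lies on chromosome 6 (39592574 to 39603382, plus strand), and its annotated exons overlap those of Braf and Gm16272 on the opposite strand and of Gm42420 on the same strand. It had 6.52, 6.24 and 5.68 CPM at 30 days, 7.81, 6.74 and 7.26 at 60 days and 6.74, 7.60 and 9.79 at 90 days. The later values all lay above those at 30 days. The means were 6.15 ± 0.427, 7.27 ± 0.537 and 8.04 ± 1.57 CPM (SD, n = 3 each). The log2 difference between 30 and 90 days was 0.38 ± 0.18 (SE, 95% interval -0.0013 to 0.77), with an unadjusted p of 0.0507 and an adjusted p of 0.299 (edgeR). Without the third 90-day library it was 0.22, and with library totals 0.60. Between 60 and 90 days it was 0.14 ± 0.18 (SE; adjusted p = 0.841, edgeR), without the same library -0.02, and with library totals 0.30.

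Ndufb3 (chromosome 1, 58586384 to 58595964, plus strand) had 17.3, 13.8 and 19.2 CPM at 30 days, 27.0, 18.7 and 14.8 at 60 days and 15.9, 16.2 and 18.1 at 90 days. The first 60-day value was the highest and the other 60-day values lay within the range of 30 days. It differed between 60 and 90 days by -0.27 ± 0.18 (log2, SE; adjusted p = 0.636, edgeR), without the first 60-day library -0.0019, and with library totals -0.08. Over the 11 distal subunits the medians were 0.07, -0.11 and -0.03 for 60 against 30, 90 against 60 and 90 against 30 days. For the 9 accessory subunits of the peripheral arm they were 0.09, -0.10 and -0.02, and for the 9 of the proximal arm 0.09, -0.10 and -0.02. With library totals the distal medians were 0.10, 0.07 and 0.19, the peripheral 0.13, 0.08 and 0.20, and the proximal 0.13, 0.10 and 0.19. The accessory groups thus had nearly equal medians, and the core subunits had the lowest between 30 and 90 days (-0.15 with TMM, 0.08 with library totals). Such an order of groups is bound to be nearly the same in both scalings.

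Counting could mix some of these genes with others. Of the 35, 20 share at least 1 window of 50 bases with an annotated transcript of another gene, and 0 share more than 50% of them. Examples are Ndufs5 with the pseudogene BC002163 (41.2% of windows), Ndufb4 with the pseudogene Ndufb4c (37.0%), Ndufs3 with Gm12251 (35.5%) and Ndufb6 with Smim27 (34.1%). Exons of 13 genes overlap a gene on the opposite strand. Use of strand and of reads with several matches is not given in the sources used here, so the levels of these genes are uncertain to that extent.

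The mitochondrial genes of complex I encode the core of the membrane arm. All 7 were below 0 between 30 and 60 days, with a median log2 difference of -0.43, and 1 of 7 passed the test, against 0.427% of all genes called lower. This was mt-Nd6, which had 950, 784 and 570 CPM at 30 days, 464, 542 and 478 at 60 days and 586, 492 and 557 at 90 days. The 60-day values lay below all 30-day values. Its log2 difference was -0.64 ± 0.15 (SE; adjusted p = 0.0422, edgeR). The call was lost with library totals (adjusted p = 0.0856, edgeR), with limma-voom (adjusted p = 0.0581), with the compared libraries alone (adjusted p = 0.0760, edgeR), and without any 1 of the first and the second 30-day, the 60-day, and the first and the third 90-day libraries (adjusted p up to 0.230, edgeR), with -0.45 without the first 30-day library. Unlike the other mitochondrial complex I genes, mt-Nd6 is encoded on the light strand, and without strand its reads cannot be told apart from those of transcripts of the other strand.

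The other mitochondrial genes did not pass the test. Between 30 and 60 days the log2 difference was -0.74 ± 0.21 for mt-Nd4l (SE; adjusted p = 0.106, edgeR), with 11.8, 10.3 and 9.83 CPM against 3.97, 8.05 and 7.05. It was -0.59 ± 0.20 for mt-Nd5 (SE; adjusted p = 0.187, edgeR), with 3214, 2503 and 1924 CPM against 1310, 2029 and 1726. It was -0.43 ± 0.16 for mt-Nd2 (SE, adjusted p = 0.244, edgeR), -0.25 for mt-Nd4, -0.21 for mt-Nd1 and -0.12 for mt-Nd3. The levels of mt-Nd3, from 1.71 to 4.72 CPM over the libraries, and of mt-Nd4l, from 3.97 to 11.8 CPM, were low beside the other mitochondrial complex I genes. The median deviation of the 7 mitochondrial genes was 0.41, 0.35 and -0.04 in the 30-day libraries. In the 60-day libraries it was -0.34, 0.08 and -0.11, so the groups overlapped. The first 60-day library, where the nuclear genes were highest, had the lowest values of its group for mt-Nd1, mt-Nd2, mt-Nd4, mt-Nd4l, mt-Nd5 and mt-Nd6. Between 60 and 90 days all 7 were above 0, with a median of 0.09 and 0 called (0.256% of all genes), and between 30 and 90 days 1 of 7 was above 0, with a median of -0.27 and 0 called (3.57%). With library totals the mitochondrial medians were -0.36 (0 of 7 above 0), 0.27 (7 of 7) and -0.03 (3 of 7) for 60 against 30, 90 against 60 and 90 against 30 days. The difference between the nuclear and the mitochondrial genes was not tested.

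Genes that assemble complex I and subunits of the other complexes were also read. In lists of this size a count of 0 called is near the background and is not a result about them. Of all genes, 1.56%, 0.256% and 3.57% were called for 60 against 30, 90 against 60 and 90 against 30 days. For 60 days against the others it was 0.256%. Of 17 listed assembly factors, 16 were found and tested, and 0 were called in any comparison. The medians of these factors were 0.04, -0.04 and 0.01 for 60 against 30, 90 against 60 and 90 against 30 days (0.09, 0.14 and 0.24 with library totals). Of the listed nuclear subunits of complexes II to V, 37 with a row each were tested and 0 were called, against the same shares of all genes. Their medians were 0.09 (32 of 37 above 0), -0.13 (2 of 37) and -0.02 (15 of 37), and with library totals 0.13 (35 of 37), 0.05 (29 of 37) and 0.19 (35 of 37). The values for the complex I genes in the same comparisons were 0.07, -0.11 and -0.03 with TMM and 0.11, 0.07 and 0.19 with library totals.

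Among 15 tested regulators of mitochondrial biogenesis, 2 passed the test. All genes called higher made up 1.14% at 60 against 30 days and 1.81% at 90 against 30 days, and those called lower at 90 against 30 days 1.77%. Esrrg, an orphan nuclear receptor that activates genes of oxidative metabolism, had 100, 106 and 111 CPM at 30 days, 132, 155 and 178 at 60 days and 128, 150 and 152 at 90 days, so that the later values were all above those at 30 days. With TMM it rose by 0.56 ± 0.12 (log2, SE; adjusted p = 0.0192, edgeR) to 60 days and by 0.44 ± 0.12 to 90 days (SE; adjusted p = 0.0410, edgeR). The first call was lost with library totals (adjusted p = 0.0968, edgeR) and without the first or the second 30-day or the second or the third 60-day library (adjusted p up to 0.101, edgeR). The second was lost without any 1 of the 30-day libraries, the second 60-day library or the second or the third 90-day library (adjusted p up to 0.182, edgeR).

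Ppargc1a, the coactivator that works with such receptors, had 49.2, 39.5 and 33.9 CPM at 30 days, 27.7, 39.0 and 38.8 at 60 days and 30.8, 23.8 and 22.7 at 90 days. The 90-day values lay below those at 30 days. It fell by 0.66 ± 0.16 (log2, SE; adjusted p = 0.0373, edgeR) between 30 and 90 days. With library totals the difference was -0.41 (adjusted p = 0.228, edgeR), and the call was also lost without the first or the second 30-day, the second 60-day, or the second or the third 90-day library (adjusted p up to 0.174, edgeR).

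Promoters of the complex I genes were read for motifs of factors known to act on mitochondrial genes. RefSeq promoter windows (GRCm38.p6, 250 bases before to 50 after the start) were found for 32 of the 35 genes and 27025 genes in all, and both strands were searched. Their median GC content was 59.2%, against 52.7% for all. The YY1 motif AAGATGGCG occurred in 5 of 32 promoters (15.6%; 1.64% of all), those of Ndufa9, Ndufc1, Ndufs4, Ndufs6 and Ndufs7. The oestrogen-related receptor motif AAGGTCA occurred in 3 (9.38%; 5.38% of all), those of Ndufb2, Ndufb4 and Ndufs5. The ETS motif CCGGAAG occurred in 4 (12.5%; 9.93% of all), the NRF1 motif GCGCATGCG in 2 (6.25%; 1.95% of all) and the TATA box TATAAA in 4 (12.5%; 15.7% of all). A match is a description of the letters, not a bound site.

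Windows of 30 bases are shown for Ndufa9 and Ndufb2, which had the largest fitted decrease and increase between 30 and 90 days, and Ndufs7, among the highest per length, with the motif in capitals and 5′ to 3′ on the gene's strand. They are at chr6:126849096-126849125 (minus strand), chr10:80249463-80249492 (plus strand) and chr6:39592373-39592402 (plus strand), in the order printed.
Ndufa9, YY1 motif: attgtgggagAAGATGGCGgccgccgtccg
Ndufs7, YY1 motif: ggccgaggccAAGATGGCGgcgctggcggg
Ndufb2, oestrogen-related receptor motif: ggagcagcagtAAGGTCAgccaagagcacc
The first base of the YY1 motif lay 30 bases after the start in Ndufa9 and 25 after it in Ndufs7, and the receptor motif began at -181 in Ndufb2. In all 5 genes the YY1 motif lay on the gene's strand, beginning 23 to 36 bases after the start. This motif holds the letters ATG, and its overlap with the start of translation was not examined. Of the 5 genes with the YY1 motif, with TMM Ndufa9 and Ndufs7 were lower at 90 than at 30 days without overlap (11.8% of all genes). Ndufs4 was higher at 60 than at 30 days without overlap (8.65%), and Ndufc1 and Ndufs6 overlapped in each comparison. With library totals Ndufa9 and Ndufs7 overlapped at 90 and 30 days. In that scaling Ndufs4 was above 30 days without overlap at 60 days (7.95%) and at 90 days (22.5%). A relation between motif and level was not tested.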

How the data were processed

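The authors deposited raw read counts per gene. The submitters' processing notes name fastp, STAR, featureCounts and the mm10 genome, without versions, options or use of strand. A further 3 columns matched no listed sample and were not used. Columns were matched to samples by day and sample number.

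Genes were filtered with filterByExpr (minimum count 10), leaving 15224 of 27001 genes with any count. All 9 libraries were fitted together with edgeR 4.0.16 (TMM, robust quasi-likelihood test, R 4.3.3), with Benjamini-Hochberg adjustment over all genes tested and a threshold of 0.05. Deviations used log2 CPM with a prior count of 2. Alternatives used DESeq2 1.42.0 and limma 3.58.1, and the procedure was tested on simulated data. Lengths, positions and shared windows came from GENCODE M21 (GRCm38), in which 54495 identifiers were found. mRNA length was that of the principal transcript matched to RefSeq. A count of 3 corresponds to 0.115 to 0.181 CPM, and this floor and the counts' precision cover counting error only, since no use of molecular identifiers is stated and amplified reads can repeat a molecule.

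The members, lists and tests were chosen with earlier results of these data known. Genes named are those called, the 2 with the largest rise and the 2 with the largest fall in each pairwise comparison, and the 3 highest and 3 lowest per length. Ndufs4, Ndufv1, Ndufs1 and Ndufa10 were added after their values were seen, and the alternatives for Ndufs4, Ndufv1, Esrrg, Ppargc1a and mt-Nd6, and the overlap of groups with library totals, were chosen after seeing the data. Genes of other lists are named where they passed the test, and all mitochondrial complex I genes are given. The alternatives were other size factors, library totals, DESeq2, limma-voom, no filter, at least 10 counts in every library, only the compared libraries, each library left out in turn, and a block for sample number.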

Additional observations from a re-analysis of the deposited data

How the results depend on the processing

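Over 17 alternatives and 67 fits, 0 complex I genes were called in any comparison, with a lowest adjusted p of 0.109 (edgeR, 60 against 30 days without the third 60-day library). In the main fits 0.256% to 3.57% of all genes were called. Counts of 0 among 35 are near such shares and are not a result about these genes. The median log2 difference moved beyond the spread between libraries (0.138) with library totals for 90 against 60 days (0.074) and 90 against 30 days (0.19), and without the first 60-day library for 60 days against the mean of the others (-0.058). With each library left out in turn, it ran from -0.05 to 0.17 for 60 against 30 days, from -0.21 to 0.02 for 90 against 60 days, from -0.09 to 0.03 for 90 against 30 days, and from -0.058 to 0.18 for 60 days against the mean of the others. With library totals the direction turned for 5 of 35 genes at 60 against 30 days, 21 at 90 against 60 days, 22 at 90 against 30 days and 8 for 60 days against the others. Such turns were not counted over all genes. Of the single-gene differences followed through every alternative, those that turned were Ndufa12 for 60 against 30 days, which ran from -0.56 to 0.00026 with a library left out, Ndufb2 for 90 against 60 days, from -0.024 to 0.24, and with library totals Ndufc1 (0.027) and Ndufv1 (0.084), both for 90 against 30 days.

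The sample numbers were used as a replicate block. Libraries with the same number had deviations that correlated between -0.06 and 0.19, not all above 0.1, so the numbers are not taken to pair them. With the block, 0 complex I genes were called and the medians were 0.06, -0.10 and -0.03 for 60 against 30, 90 against 60 and 90 against 30 days and 0.09 for 60 days against the others. Genes called over all genes went from 39 to 92 for 90 against 60 days, and from 39 to 73 for 60 days against the others.

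With 3 libraries a group and a median standard error of 0.14, differences of the size of the medians were not detectable gene by gene.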

Other observations

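Protein genes of both ribosomes were read beside the complex I genes. Of 16 genes of the large subunit of the mitochondrial ribosome, 0 were called in any comparison (edgeR). Of all genes, 1.56%, 0.256% and 3.57% were called for 60 against 30, 90 against 60 and 90 against 30 days. For 60 days against the others it was 0.256%, so counts of 0 in such lists are near the background. The median log2 differences of these 16 genes were 0.08, -0.06 and 0.03 for 60 against 30, 90 against 60 and 90 against 30 days (0.13, 0.12 and 0.25 with library totals). Of 24 cytosolic ribosomal protein genes 0 were called, against the same shares, with medians of 0.03, -0.09 and -0.06 (0.07, 0.10 and 0.17 with library totals). Their median deviation was 0.33 in the first 60-day library and -0.26 in the third, against 0.27 and -0.16 for the complex I genes.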
